A study of Arabidopsis thaliana with 4 samples.

Results

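LPR1, LPR2, PDR2, CLE14, CLV2 and PEPR2 are 6 Arabidopsis thaliana genes with known roles in the local response of the root tip to phosphate. They were chosen by locus identifier (AT1G23010, AT1G71040, AT5G23630, AT1G63245, AT1G65380 and AT1G17750), and all 6 were found among the 33602 loci counted. All 6 passed the filter on low values, a mean of at least 1 CPM over the libraries (CPM is the count per 1000000 reads assigned to genes, scaled between libraries with the trimmed mean of M values, TMM), as did 18692 of all loci.

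RNA was sequenced from root tips of seedlings 4 days after germination. Each of the 4 groups had 1 library. They were Col-0, the reference accession, on high phosphate (1 mM, +Pi) and on low phosphate (5 µM, -Pi), and the mutant line med16-2, of the same accession and defective in subunit 16 of the Mediator complex, on the same +Pi and -Pi plates. All plates held dilute modified MS agar with sucrose, and only 1 mutant line was sequenced. The libraries are unreplicated, so no difference between them could be set against the spread of repeated samples. Ranges in parentheses are 95% intervals that cover counting error only. Phosphate ratios are low over high phosphate, so that higher means higher on -Pi, and genotype ratios are med16-2 over Col-0.

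In the apical part of the root, phosphate is sensed locally and the response depends on iron. LPR1 and its homologue LPR2 encode multicopper oxidases, and LPR1 oxidises ferrous iron in the cell wall space, where iron and callose accumulate when phosphate is scarce and the meristem stops growing. PDR2, an ATPase of the endoplasmic reticulum, restrains LPR1, so that pdr2 mutants overreact to low phosphate and lpr1 mutants keep growing. CLE14 encodes a small secreted peptide that acts downstream, through the receptor proteins CLV2 and PEPR2, to end cell division in the root meristem. STOP1 and the malate channel ALMT1 form a branch that works together with LPR1, and Mediator subunit 16 is known to act with STOP1.

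LPR1 was the one gene of the 6 that differed by more than the size rule, and it did so between genotypes, not with phosphate. The size rule asked for a difference of at least 2-fold and a 95% interval of the ratio that excluded equality. LPR1 had 120 counts in Col-0 +Pi, 173 in Col-0 -Pi, 52 in med16-2 +Pi and 60 in med16-2 -Pi. These are levels of 12.2 CPM (10.1 to 14.6), 10.8 CPM (9.28 to 12.6), 3.61 CPM (2.70 to 4.74) and 4.89 CPM (3.73 to 6.30). Both med16-2 libraries were low, and their intervals did not overlap those of either Col-0 library.

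**Figure D1:**
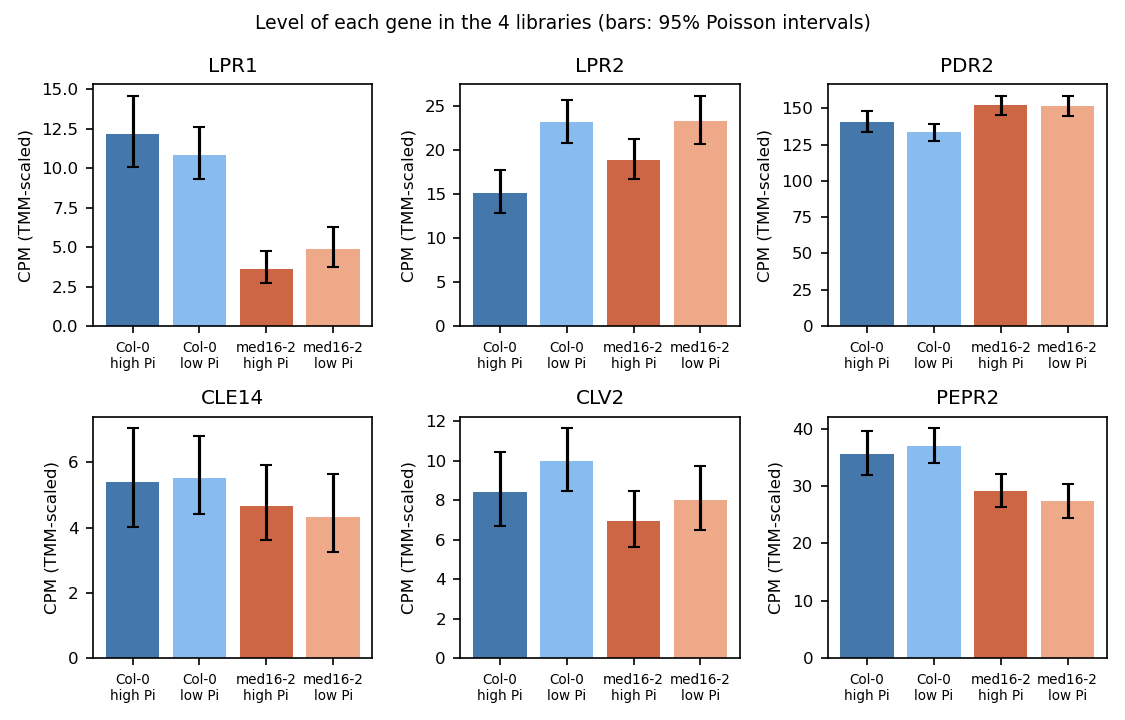
Level of each of the 6 genes (vertical axes, CPM scaled with TMM, each axis from 0) in the 4 libraries (horizontal axes); bars are single libraries and the lines 95% Poisson intervals of the count. LPR1 stood at 12.2 and 10.8 CPM in Col-0 and at 3.61 and 4.89 CPM in med16-2, while PDR2 was between 133.4 and 151.9 CPM.

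LPR1 was 3.35-fold lower (2.42 to 4.76) in med16-2 than in Col-0 on +Pi, a log2 ratio of -1.75 (-2.25 to -1.27). At low phosphate it was 2.20-fold lower (1.64 to 3.02), a log2 ratio of -1.14 (-1.60 to -0.72). Of all loci tested, 2.05% had a lower log2 ratio than LPR1 on +Pi and 5.03% on -Pi. In an additive fit over the 4 libraries, with genotype and phosphate as terms and 1 residual degree of freedom, LPR1 fell by 1.44 on the log2 scale (SE 0.22) in med16-2, with an adjusted p of 0.0239 in edgeR's quasi-likelihood test with Benjamini-Hochberg adjustment over all loci tested. That fit takes the 2 libraries of a genotype as its replicates, so any dependence of one factor on the other enters its spread. In these bulk samples, fewer cells of a type and less RNA per cell cannot be told apart.

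The med16-2 library on -Pi stood apart from the other 3, with 36.6% of its reads aligned to several places against 6.65% to 9.27%. The LPR1 ratio on +Pi does not use that library. Set against both Col-0 libraries summed, med16-2 +Pi had an LPR1 log2 ratio of -1.64 (-2.11 to -1.22), a comparison added after the data had been seen. The sum mixes +Pi and -Pi on the Col-0 side, and it adds counts, not replicates. Gene counts ranged from 10079345 to 15696333 per library. MED16 (AT4G04920), the gene mutated in med16-2, had 420 counts on +Pi and 747 on -Pi in Col-0 but 56 and 48 in the mutant, 10.9-fold lower (8.28 to 14.8) on +Pi and 11.8-fold lower (8.93 to 16.4) on -Pi.

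Markers of root cell types were measured beside LPR1. The 7 root tip markers, among them the stem cell factor PLT1 and the root cap factor SMB, were detected in every library and summed to between 142.1 and 159.3 CPM. The 3 endodermis markers (CASP1, CASP2 and MYB36) summed to 335.9 CPM on +Pi and 374.7 CPM on -Pi in Col-0 and to 254.5 and 262.6 CPM in med16-2, with none at 0. The 4 root hair markers summed to 501.7, 362.5, 303.5 and 370.4 CPM in the order Col-0 +Pi, Col-0 -Pi, med16-2 +Pi and med16-2 -Pi. The 4 shoot markers summed to 51.9, 30.2, 3.96 and 6.77 CPM in that order, with LHCB1.1 at 0 in every library. The summed endodermis and shoot markers were thus lower in both med16-2 libraries, as LPR1 was, and the root hair sum was lower on +Pi. These 3 endodermis markers were below 0 in log2 ratio in both genotype comparisons, with medians of -0.38 and -0.61, and none met the size rule. In the additive fit CASP1, at -0.40 (SE 0.08), and CASP2, at -0.55 (SE 0.09), passed for genotype beside LPR1. Their adjusted p-values were 0.0455 and 0.0256 in edgeR's quasi-likelihood test. MYB36, at -0.52 (SE 0.13), did not pass, with 0.0778 in that test. The shoot marker RCA also passed, at -2.63 (SE 0.32), with an adjusted p of 0.0137 in that test. RBCS1A was at -7.33 (SE 0.67), but it had 108 and 65 counts in Col-0 and 0 and 1 in med16-2. It passed the filter on low values only through the Col-0 libraries, so its values are given as description. RBCS1A and RCA met the size rule in both genotype comparisons. Of the 4 root hair markers, RSL4 met the size rule on +Pi, at -1.02 (-1.18 to -0.87), and none did on -Pi. Over all loci tested, 6.52% were lower for genotype in the additive fit, at an adjusted p under 0.05. By the size rule 6.34% were lower in med16-2 on +Pi and 6.14% on -Pi. The part of these cell types in the LPR1 difference was not tested.

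LPR1 lies on chromosome 1 at 8147118 to 8149891, plus strand, in the TAIR10.1 annotation, with 4 exons. The submitters name TAIR10, whose nuclear chromosome sequences TAIR10.1 keeps, and the annotation they counted on may draw gene ends elsewhere. The last 24 bases of LPR1 (8149868 to 8149891), which are 1.05% of its exon bases, lie tail to tail with the end of FRO3 (AT1G23020), a ferric reductase gene on the minus strand. The libraries do not keep strand, so reads over those bases cannot be told apart. Reads over overlapping genes are listed apart from gene counts. FRO3 had 616 counts in Col-0 +Pi, 730 in Col-0 -Pi, 941 in med16-2 +Pi and 509 in med16-2 -Pi. The FRO3 log2 ratio of med16-2 over Col-0 was 0.06 (-0.08 to 0.21) on +Pi and -0.14 (-0.31 to 0.03) on -Pi, and both intervals included equality. Between phosphate levels FRO3 was at -0.45 (-0.61 to -0.29) in Col-0 and -0.65 (-0.81 to -0.50) in med16-2, short of 2-fold.

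LPR2 lies on chromosome 1 at 26796725 to 26800483, minus strand, also with 4 exons, and its coding sequence has the same length as that of LPR1, 1746 bases. The coding sequences were identical at 75.8% of aligned positions. The longest run of bases that they share was 29 in the coding sequences and over all exon bases alike. It is shown with 20 bases on each side, shared run in capitals, as the stretch where the pair is hardest to tell apart. Whether reads of one gene were counted for the other was not tested. The windows are chr1:8149297-8149365 (plus strand) for LPR1 and chr1:26797410-26797478 (minus strand) for LPR2, RefSeq sequence of TAIR10.1, each written 5′ to 3′ along its gene.
LPR1: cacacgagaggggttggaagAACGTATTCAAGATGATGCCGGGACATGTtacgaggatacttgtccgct
LPR2: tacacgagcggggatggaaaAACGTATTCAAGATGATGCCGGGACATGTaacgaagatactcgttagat

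LPR2 did not follow LPR1. It had 149 counts in Col-0 +Pi, 369 in Col-0 -Pi, 271 in med16-2 +Pi and 285 in med16-2 -Pi, or 15.1 CPM (12.8 to 17.8), 23.1 CPM (20.8 to 25.6), 18.8 CPM (16.6 to 21.2) and 23.2 CPM (20.6 to 26.1). The low phosphate libraries were the higher ones in both genotypes, and the lowest value was that of Col-0 +Pi. The ratio of low over high phosphate was 1.53-fold (1.26 to 1.86) in Col-0 and 1.23-fold (1.04 to 1.46) in med16-2, both short of the size rule, and the additive fit gave a log2 difference of 0.45 (SE 0.13) with an adjusted p of 0.253 in edgeR's quasi-likelihood test. Between genotypes the LPR2 log2 ratio was 0.31 (0.02 to 0.61) on +Pi and 0.01 (-0.22 to 0.23) on -Pi.

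The share of LPR1 in the counts of the pair does not depend on how libraries are scaled, and it was examined after the values had been seen. LPR1 made up 44.6% of LPR1 plus LPR2 counts (exact binomial interval 38.6 to 50.8) in Col-0 +Pi and 31.9% (28.0 to 36.0) in Col-0 -Pi. It made up 16.1% (12.3 to 20.6) in med16-2 +Pi and 17.4% (13.5 to 21.8) in med16-2 -Pi. The med16-2 shares overlapped each other and lay below both Col-0 shares. Within Col-0 the share was lower on -Pi, where LPR2 was 1.53-fold higher and LPR1 had a log2 ratio of -0.17 (-0.51 to 0.18).

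**Figure D2:**
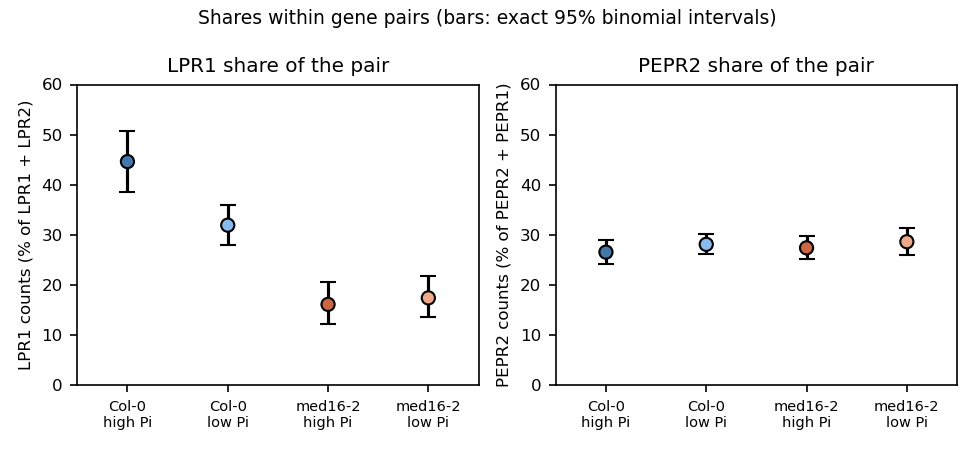
Share of LPR1 in LPR1 plus LPR2 counts (left) and of PEPR2 in PEPR2 plus PEPR1 counts (right), in percent on the vertical axes, for the 4 libraries on the horizontal axes; lines are exact 95% binomial intervals. The LPR1 share was 44.6% and 31.9% in Col-0 and 16.1% and 17.4% in med16-2, whereas the PEPR2 share lay between 26.5% and 28.6% in all 4 libraries.

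The 250 bases before the annotated starts of LPR1 (chr1:8146868-8147117, plus strand) and LPR2 (chr1:26800484-26800733, minus strand) are shown because LPR1 met the size rule between genotypes and LPR2 did not. Both are RefSeq sequence of TAIR10.1, written 5′ to 3′ along the gene, with matches to the searched motifs in capitals.
LPR1: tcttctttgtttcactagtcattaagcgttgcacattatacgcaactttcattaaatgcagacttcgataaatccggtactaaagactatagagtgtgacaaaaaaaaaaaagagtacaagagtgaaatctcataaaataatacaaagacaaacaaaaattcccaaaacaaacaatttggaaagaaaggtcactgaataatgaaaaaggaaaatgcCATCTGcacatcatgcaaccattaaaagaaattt
LPR2: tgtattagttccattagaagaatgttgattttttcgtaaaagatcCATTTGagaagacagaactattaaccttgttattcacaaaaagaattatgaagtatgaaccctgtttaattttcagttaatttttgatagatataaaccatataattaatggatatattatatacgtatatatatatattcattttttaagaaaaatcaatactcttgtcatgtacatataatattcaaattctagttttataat

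Searched on both strands were GNATATNC, the site of the phosphate starvation regulator PHR1, CANNTG, the E-box bound by factors such as BES1, and CGTGNG, which covers a site of BZR1. No match of GNATATNC or CGTGNG lay in the windows of the 6 genes. CANNTG occurred once each before LPR1, at position -34 from the start, before LPR2, at -205, and before PDR2, at -68, and not before CLE14, CLV2 or PEPR2. Among 18620 such windows of the loci tested, 5.43% held GNATATNC, 55.9% CANNTG and 12.8% CGTGNG. These are letter matches in a short window only.

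PDR2 had the highest level of the 6 genes and the narrowest range relative to its level. It lies on chromosome 5 at 7960478 to 7968197, minus strand, with 22 exons. It had 1386 counts in Col-0 +Pi, 2129 in Col-0 -Pi, 2187 in med16-2 +Pi and 1856 in med16-2 -Pi, or 140.7, 133.4, 151.9 and 151.3 CPM. The med16-2 libraries were slightly above the Col-0 libraries. The log2 ratio of med16-2 over Col-0 was 0.11 (0.01 to 0.21) on +Pi and 0.18 (0.09 to 0.27) on -Pi, and that of low over high phosphate was -0.08 (-0.18 to 0.02) in Col-0 and -0.01 (-0.10 to 0.08) in med16-2. The intervals thus leave room for differences of at most 1.21-fold by counting error, far under the size rule.

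CLE14, the peptide gene, is a single-exon gene on chromosome 1 at 23460198 to 23460884, minus strand, with a coding sequence of 243 bases. It had 53 counts in Col-0 +Pi, 88 in Col-0 -Pi, 67 in med16-2 +Pi and 53 in med16-2 -Pi, or 5.38 CPM (4.03 to 7.04), 5.51 CPM (4.42 to 6.79), 4.65 CPM (3.61 to 5.91) and 4.32 CPM (3.24 to 5.65). All 4 intervals overlapped. The log2 ratio of low over high phosphate was 0.03 (-0.47 to 0.56) in Col-0 and -0.10 (-0.65 to 0.43) in med16-2, so that a change of 2-fold in either direction lay outside both intervals. Between genotypes the log2 ratio was -0.21 (-0.75 to 0.34) on +Pi and -0.35 (-0.87 to 0.16) on -Pi.

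CLV2, a receptor-like protein gene without introns, lies on chromosome 1 at 24286742 to 24289329, plus strand. It had 83 counts in Col-0 +Pi, 159 in Col-0 -Pi, 100 in med16-2 +Pi and 98 in med16-2 -Pi, or 8.43, 9.96, 6.95 and 7.99 CPM. Its log2 ratio of low over high phosphate was 0.24 (-0.15 to 0.64) in Col-0 and 0.20 (-0.21 to 0.62) in med16-2. Between genotypes it was -0.28 (-0.71 to 0.16) on +Pi and -0.32 (-0.70 to 0.05) on -Pi, and each of these intervals included equality.

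PEPR2, a receptor kinase gene that also perceives the defence peptides of the PROPEP genes, lies on chromosome 1 at 6106323 to 6110120, plus strand. It had 351 counts in Col-0 +Pi, 590 in Col-0 -Pi, 419 in med16-2 +Pi and 335 in med16-2 -Pi, or 35.6 CPM (32.0 to 39.6), 36.96 CPM (34.0 to 40.1), 29.1 CPM (26.4 to 32.0) and 27.3 CPM (24.5 to 30.4). Both med16-2 values were below both Col-0 values. The log2 ratio of med16-2 over Col-0 was -0.29 (-0.50 to -0.08) on +Pi and -0.44 (-0.63 to -0.24) on -Pi, short of 2-fold, and the additive fit gave -0.36 (SE 0.10) with an adjusted p of 0.0904 in edgeR's quasi-likelihood test. In TAIR10.1 the last 14 bases of PEPR2 overlap the gene CSTF77 on the minus strand. Antisense loci that were not analysed here overlap up to 739 bases of PEPR2, taken from gene start to gene end.

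PEPR1, the other PEP receptor gene, had 972 and 1511 counts in Col-0 on +Pi and -Pi, and 1111 and 836 in the mutant. Its log2 ratio of med16-2 over Col-0 was -0.35 (-0.48 to -0.23) on +Pi and -0.47 (-0.60 to -0.35) on -Pi, close to those of PEPR2. PEPR2 made up 26.5% and 28.1% of the pair's counts in Col-0 and 27.4% and 28.6% in the mutant, and the exact binomial intervals of the 4 shares all overlapped. The coding sequences were identical at 72.3% of aligned positions and shared at most 32 bases in a row.

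**Figure D3:**
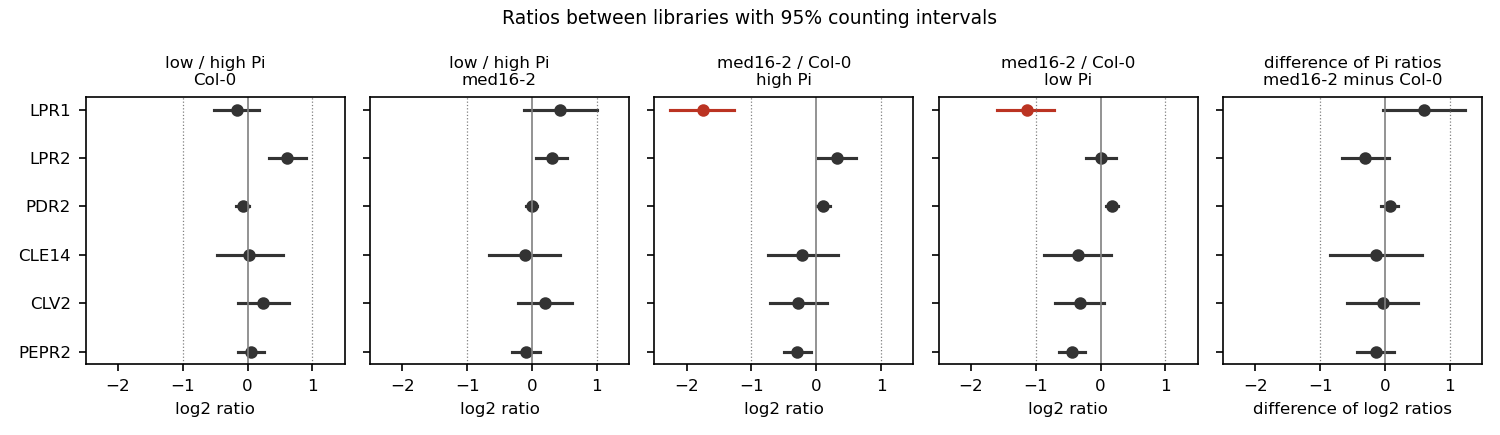
Log2 ratios between libraries for the 6 genes (rows), with low over high phosphate in each genotype, med16-2 over Col-0 at each phosphate level, and the difference of the phosphate ratios; horizontal lines are 95% counting intervals, dotted lines mark 2-fold, and red marks a difference meeting the size rule. LPR1 was at -1.75 and -1.14 in the genotype panels, and no other gene reached 2-fold in any panel.

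Counted over the 6 genes, none met the size rule for phosphate in Col-0, where 3.24% of loci tested were higher and 1.49% lower, or for phosphate in med16-2, where 2.26% were higher and 1.03% lower. LPR1, 1 of 6, was lower in med16-2 +Pi, where 6.34% of loci were lower and 0.712% higher, and again on -Pi, where 6.14% were lower and 1.04% higher. The medians of the 6 log2 ratios were 0.04 in Col-0 and 0.10 in med16-2 for phosphate, and -0.25 on +Pi and -0.33 on -Pi for genotype, against -0.02, -0.01, 0.02 and 0.01 over all loci tested. In edgeR's additive fit, 1 of 6 had an adjusted p under 0.05 for genotype and was lower, as were 6.52% of loci. For phosphate 0 of 6 did, against 0.968% of loci in either direction, with 1 of 6 (LPR2) at an unadjusted p under 0.05 in edgeR, as were 13.4% of loci, and 0 of 6 in DESeq2, where 4.45% were.

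The phosphate ratios of the 2 genotypes were compared by their difference, med16-2 minus Col-0, and none of the 6 genes met the size rule, which 4.46% of loci met in either direction. LPR1 had the largest difference of the 6, 0.61 (-0.02 to 1.24), from a log2 ratio of -0.17 (-0.51 to 0.18) in Col-0 and 0.44 (-0.12 to 1.00) in med16-2, and its interval included 0. LPR2 followed at -0.31 (-0.67 to 0.06), PEPR2 at -0.14 (-0.42 to 0.14), CLE14 at -0.13 (-0.85 to 0.58), PDR2 at 0.07 (-0.06 to 0.20) and CLV2 at -0.04 (-0.59 to 0.52).

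Levels of different genes were compared per kilobase of exon in TAIR10.1. PDR2 was highest in every library, at 31.6 to 35.96 CPM per kilobase, and PEPR2 followed in the means over libraries with 8.69, LPR2 with 8.09, CLE14 with 7.23, LPR1 with 3.44 and CLV2 with 3.22. In Col-0 +Pi LPR1 was at 5.31 CPM per kilobase (4.41 to 6.35) and LPR2 at 6.10 (5.16 to 7.16), which overlap. In med16-2 +Pi LPR1 was at 1.58 (1.18 to 2.07) and LPR2 at 7.59 (6.71 to 8.55). Compared with CLV2, LPR1 was above it in Col-0 +Pi, where CLV2 was at 3.26 (2.59 to 4.04), and below it in med16-2 +Pi, where CLV2 was at 2.68 (2.18 to 3.26). At low phosphate the LPR1 and CLV2 intervals overlapped in both genotypes. PEPR2, LPR2 and CLE14 each overlapped with at least 1 of the other two in every library, except LPR2 in med16-2 -Pi, whose 9.37 (8.31 to 10.5) lay above both.

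Loci with the most similar pattern were sought by the root mean square difference of log2 levels, centred over the 4 libraries, among loci whose mean reached 5 CPM. For LPR1 these were AT5G46730 at a difference of 0.064, AT3G20557 at 0.066 and PMEPCRF (AT5G53370), a pectin methylesterase gene, at 0.067. Within 0.1 of LPR1 lay 7 of 15284 loci, against 4599 for PDR2, 1050 for CLE14, 711 for CLV2, 685 for PEPR2 and 119 for LPR2. These numbers depend on how far a gene departs from the profile of most loci, so they are not separate from its ratios. Counting error was not set against the distances, so the order of the closest loci was not tested. The closest loci were ABCG40 to LPR2 (0.019), AT1G51730 to PDR2 (0.0064), AT5G08520 to CLE14 (0.0076), AT3G60070 to CLV2 (0.0060) and TPP to PEPR2 (0.0027).

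Around the 6 genes, 39 genes of the same pathways were listed and 35 passed the filter. The exceptions were the peptide genes CLE19, CLE20 and CLE40 and the callose synthase gene CALS5. In med16-2 +Pi 4 of the 35 were lower and none higher, against 6.34% of loci lower and 0.712% higher, and on -Pi again 4 were lower and none higher, against 6.14% and 1.04%. The medians of their genotype log2 ratios were 0.00 and -0.08, against 0.02 and 0.01 over all loci. In each genotype 2 of the 35 were higher on -Pi than on +Pi and none lower. Of all loci, 3.24% were higher and 1.49% lower in Col-0, and 2.26% and 1.03% in med16-2. The medians of their phosphate log2 ratios were 0.22 in Col-0 and 0.11 in med16-2 for the 35 genes, against -0.02 and -0.01 over all loci. WOX5 and PDLP1, among the genes counted, passed the filter only through libraries where they were high: WOX5 had a mean of 0.475 CPM without Col-0 -Pi, and PDLP1 one of 0.726 CPM over the med16-2 libraries, so their calls follow in part from the filter and are given as description. Among the 28 genes with a mean of at least 5 CPM, 1 was lower in each genotype comparison (ALMT1 on +Pi, BIK1 on -Pi). Of the same 28, 1 (ALMT1) was higher on -Pi than on +Pi in each genotype. A pseudocount of 5 left 2 lower on -Pi, without PROPEP2 and PDLP1. With DESeq2 size factors 5 of the 35 were lower on +Pi. These counts were added after the data had been seen.

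In the STOP1 and ALMT1 branch, ALMT1 was 2.39-fold lower (2.05 to 2.81) in med16-2 +Pi and at a log2 ratio of -0.62 (-0.71 to -0.53) on -Pi, and the citrate exporter gene MATE was 2.27-fold lower (1.12 to 4.85), with 22 and 14 counts, on +Pi and at -0.37 (-1.05 to 0.28) on -Pi. The remaining 5 of the 7, STOP1 among them at 0.26 (0.16 to 0.36) and 0.16 (0.06 to 0.25), did not meet the rule in either genotype comparison. ALMT1 was 4.61-fold higher (4.17 to 5.13) on -Pi than on +Pi in Col-0 and 7.20-fold higher (6.31 to 8.26) in med16-2, where MATE was also 2.63-fold higher (1.39 to 5.44). In the additive fit ALMT1 passed for genotype, at -0.89 (SE 0.16), and for phosphate, at 2.51 (SE 0.17). The adjusted p-values were 0.0353 and 0.00778 in edgeR's quasi-likelihood test. LPR1 and ALMT1 thus were both lower in med16-2 +Pi, and ALMT1 was higher on -Pi in both genotypes, where the LPR1 intervals included equality.

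**Figure D4:**
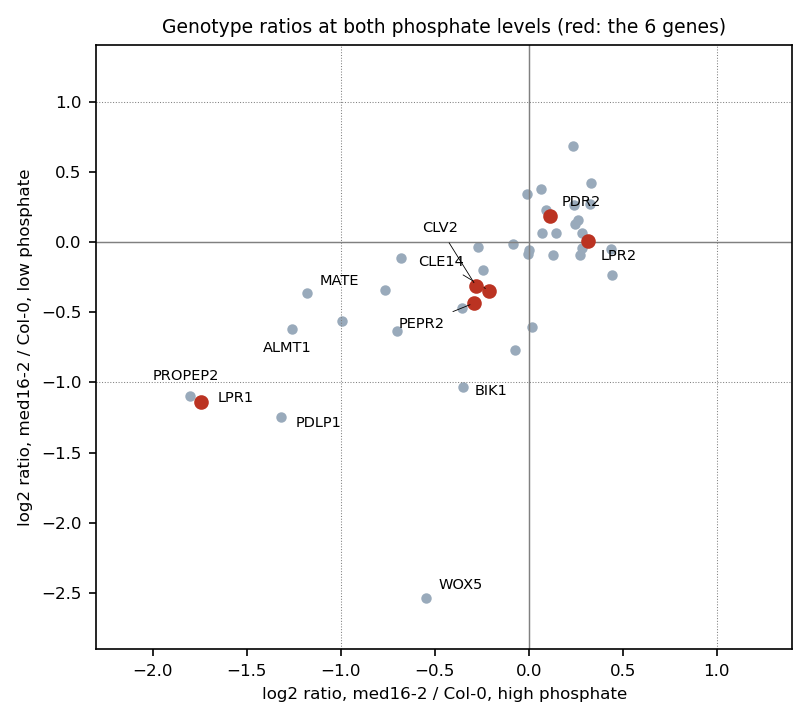
Log2 ratio of med16-2 over Col-0 on +Pi (horizontal axis) against that on -Pi (vertical axis) for the 6 genes (red) and 35 measured genes of the same pathways (grey), each point 1 gene; dotted lines mark 2-fold, and every gene meeting the size rule in either comparison is named. LPR1 (-1.75 and -1.14), PROPEP2 (-1.80 and -1.10) and PDLP1 (-1.32 and -1.25) met the rule in both, PDLP1 on +Pi not when scaled by total gene counts and PROPEP2 and PDLP1 on -Pi not with a pseudocount of 5.

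Among PEP peptide genes and PEPR partners, PROPEP2, which encodes the precursor of a PEPR ligand, had 46 counts on +Pi and 79 on -Pi in Col-0 but 19 and 28 in the mutant. It was 3.48-fold lower (2.03 to 6.39) in med16-2 +Pi and 2.14-fold lower (1.39 to 3.47) on -Pi. PROPEP3 was at 13.3 CPM in Col-0 +Pi and 6.67 CPM in med16-2 +Pi, narrowly short of 2-fold, and at -0.77 (SE 0.18) for genotype in the additive fit. BIK1, a cytoplasmic kinase that PEPR receptors signal through, was 2.04-fold lower (1.69 to 2.48) on -Pi, with a log2 ratio of -0.35 (-0.65 to -0.05) on +Pi, and the difference between the phosphate ratios of the genotypes, -0.68 (-1.08 to -0.28), was short of 2-fold. In the phosphate comparisons 0 of the 6 met the rule, with PROPEP1 at 0.83 and BIK1 at 0.54 in Col-0 and PROPEP2 at 0.78 and PROPEP3 at 0.50 in med16-2.

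Genes for CLE receptors and co-receptors had 0 of 7 measured members meeting the rule in any comparison. Of all loci, 0.712% to 6.34% met it per direction in the phosphate and genotype comparisons, and 4.46% for the difference. A count of 0 in this list, or in the other short lists, cannot be told from those shares. The largest log2 ratios were those of CRN, a partner of CLV2, at 0.75 and BAM3 at 0.53 for phosphate in Col-0, BAM3 at 0.47 and CLV1 at 0.41 for phosphate in med16-2, ACR4 at 0.33 and BAM1 at 0.28 for genotype on +Pi, and CRN at -0.77 and ACR4 at 0.42 for genotype on -Pi. Of the root CLE peptide genes, 3 of 6 were measured and 0 met the rule. CLE25 and CLE45 were at 0.48 and 0.33 for phosphate in Col-0 and 0.44 and 0.24 for genotype on +Pi, and CLE45 and CLE26 were at 0.78 and 0.33 for phosphate in med16-2 and 0.69 and 0.38 for genotype on -Pi. CLE45 had 12 to 31 counts per library, and its phosphate intervals were -0.68 to 1.49 in Col-0 and -0.05 to 1.67 in med16-2. That of CLE25 in Col-0 was -0.09 to 1.11, and these intervals included equality. The intervals of the CLE26 ratios were -0.82 to 1.49 for phosphate in med16-2 and -0.75 to 1.51 for genotype on -Pi. CLE26 had 9 to 15 counts per library, and its mean without med16-2 -Pi was 0.942 CPM, under the filter. The CLE26 ratios are therefore given as description. CLE40 had no count in any library, which allows a level of up to 0.188 to 0.305 CPM (3 counts) by library.

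BES1 and BZR1, transcription factors of brassinosteroid signalling of which BES1 is known to repress LPR1, did not meet the rule in any comparison. BES1 had log2 phosphate ratios of 0.28 in Col-0 and -0.08 in med16-2, and log2 genotype ratios of 0.27 on +Pi and -0.10 on -Pi, and BZR1 was at -0.08, 0.06, 0.09 and 0.23 in the same order. Of SHR, SCR and WOX5, regulators of the stem cell niche that PDR2 is known to influence through SCR, WOX5 was 6.34-fold higher (2.79 to 22.1) on -Pi in Col-0, with 5 and 56 counts, and 5.79-fold lower (2.80 to 16.0) in med16-2 than in Col-0 on -Pi. In the mutant WOX5 counts were 5 on +Pi and 7 on -Pi, a log2 phosphate ratio of 0.68 (-1.16 to 2.72), and its genotype ratio on +Pi was -0.55 (-2.67 to 1.57). SHR was at 0.44 for genotype on +Pi and SCR at -0.11 for phosphate in med16-2.

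Among callose and plasmodesmata genes, 7 of 8 were measured. PDLP1, which encodes a plasmodesmata protein, was lower in med16-2 at both phosphate levels, at log2 ratios of -1.32 (-2.81 to -0.0018) with 14 and 8 counts and -1.25 (-2.42 to -0.28) with 35 and 11 counts. Scaled by total gene counts, its interval on +Pi was -2.77 to 0.04, which ends that call and leaves 3 of the 35 lower. CALS1, a callose synthase gene, was at -0.70 (-0.82 to -0.58) and -0.63 (-0.75 to -0.52), short of 2-fold. It passed the additive fit for genotype with an adjusted p of 0.0145 in edgeR's quasi-likelihood test. By that criterion 6.52% of loci were lower. Between phosphate levels none of the 7 met the rule. For low over high phosphate PDLP1 was at 0.60 and CALS7 at 0.32 in Col-0, and PDLP1 at 0.67 and PDLP5 at 0.32 in med16-2.

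For the difference of phosphate log2 ratios, med16-2 minus Col-0, 0 of the 35 pathway genes met the rule, which 4.46% of loci met, and 1 was lower when scaled by total gene counts. The differences largest in size by group were 0.82 for MATE and 0.64 for ALMT1, -0.37 for BES1 and 0.14 for BZR1, -0.68 for CLE25 and 0.45 for CLE45, and -0.70 for CRN and 0.24 for RPK2. They were 0.70 for PROPEP2 and -0.68 for BIK1 in the PEP group, and 0.56 for PDLP5 and -0.12 for CALS3. Among SHR, SCR and WOX5 they were -1.99 (-4.01 to 0.04) for WOX5 and -0.48 for SHR. The WOX5 difference was past 2-fold but its interval included 0. It rests on 5 and 56 counts in Col-0 and 5 and 7 in med16-2, on +Pi and -Pi. The order of the differences by size does not account for counting error. MATE had 14 to 54 counts per library, CLE45 12 to 31 and PROPEP2 19 to 79, against 257 to 3151 for ALMT1.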

How the data were processed

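The authors deposited 1 file per library holding whole-number read counts per locus with no normalization. The submitters' processing notes name TAIR10, TopHat2 2.0.9, Trimmomatic 0.35 and HTSeq 0.6.0 without their settings, and per the labels' protocols the libraries keep no strand. Lines naming no gene (12.5%, 9.89%, 10.1% and 42.1% of reads for Col-0 +Pi, Col-0 -Pi, med16-2 +Pi and med16-2 -Pi) were left out. Reads aligned to several places, or to overlapping genes, are listed apart from gene counts, which can lower counts of similar genes.

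Counts were scaled with TMM (edgeR 4.0.16, R 4.3.3; factors 0.9774 to 1.017), and log2 ratios used counts plus 0.5. Intervals were exact (Clopper-Pearson) for ratios and shares, Poisson for levels, and normal for the difference of ratios. A count of 0 allows 3 counts, 0.188 to 0.305 CPM by library. No p-value was computed between 2 libraries. DESeq2 1.42.0 was an alternative. Names and gene models came from TAIR10.1 (32835 loci matched). The genes, lists and tests were chosen with earlier results of these data known. Named were the 6 genes, overlapping loci, list members meeting the size rule or otherwise the pair with the largest ratios, and the nearest patterns. PEPR1, STOP1, CALS1 and the genotype values of PROPEP3 were added after their values were seen. The labels give 1 library per group, so p-values of the additive fit measure the spread around an additive pattern. Of the endodermis markers first listed, 1 is not reported here.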

Additional observations from a re-analysis of the deposited data

Results flagged for a closer look

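For 3 of the 6 genes the ratio of low over high phosphate had opposite signs in the 2 genotypes, each from 1 library per group, as it had for 39.1% of all loci tested. LPR1 had a log2 ratio of -0.17 in Col-0 and 0.44 in med16-2, CLE14 of 0.030 and -0.10, and PEPR2 of 0.052 and -0.091. With a pseudocount of 5 in place of 0.5, CLE14 was below 0 in both, at -0.015 and -0.081. The interval of the difference between genotypes included 0 for each of the 3 genes, and with 1 library per group the difference was not tested.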

How the results depend on the processing

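Of 126 alternative values of the 6 genes' ratios, 122 stayed on the same side of the size rule and within the interval of the reported value. LPR1 in med16-2 over Col-0 ranged from -1.75 to -1.68 at high phosphate and from -1.17 to -1.07 at low phosphate under 3 other scalings and a pseudocount of 5. The 4 exceptions came from adding the counts of FRO3, which outnumber those of LPR1 in every library: the genotype log2 ratios of the sum were -0.12 at high and -0.29 at low phosphate, neither meeting the rule, that of phosphate in med16-2 was -0.57, and the difference of phosphate ratios was -0.17. Because the sum is mostly FRO3 counts, it does not test whether FRO3 reads were counted for LPR1. A fold of 1.5 in place of 2 added LPR2 for phosphate in Col-0, 1 of 6 in place of 0. In the additive fit all 46 alternative values of the 6 genes kept their side of the threshold, and the adjusted p of LPR1 for genotype lay between 0.0087 and 0.0295 over edgeR and DESeq2 settings.

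Counts over all loci moved more. A filter of 5 CPM gave 255 higher and 134 lower for phosphate in Col-0, 181 and 71 in med16-2, 33 and 710 for genotype at high and 57 and 579 at low phosphate, and 205 and 164 for the difference, in place of 606 and 278, 422 and 193, 133 and 1186, 195 and 1147, and 429 and 404; fewer loci were tested. A pseudocount of 5 gave 64 higher for genotype at high phosphate and 246 lower for the difference. For genotype in the additive fit, 148 higher and 1218 lower became 37 and 796 with DESeq2, and 312 higher with no filter. For phosphate 146 higher and 35 lower became 298 and 97 with no filter, and 57 were lower with DESeq2. The cause was not tested. No paired analysis was possible because each group has 1 library. Depth limits CLE14, CLV2 and LPR1 most, whose intervals are the widest of the 6.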
